A study of Mus musculus with 8 samples.

Results

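Histone H3 lysine methylation and HP1 genes code for the enzymes that add or remove methyl groups on histone H3 and for the proteins that read these marks. The 10 genes were the methyltransferases Suv39h1, Suv39h2, Ehmt1, Ehmt2, Setdb1 and Prdm9, the heterochromatin protein 1 (HP1) genes Cbx1, Cbx3 and Cbx5, and the demethylase Kdm3a, which the array names Jmjd1a. Every array probe whose gene name was one of these was taken, other than control spots. This gave 24 of 41174 probes, for 10 of 27666 gene names on the array.

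Methylation of lysine 9 of histone H3 marks silent chromatin. SUV39H1 and SUV39H2 trimethylate this lysine at the repeats around centromeres, EHMT1 (GLP) and EHMT2 (G9a) form a complex that dimethylates it in silenced genes, and SETDB1 silences transposable elements. HP1 proteins bind the methylated lysine through their chromodomain, and KDM3A removes the methyl groups. In male germ cells, G9a is needed for meiosis, as are SUV39H1 and SUV39H2 together, KDM3A acts in spermatids, and PRDM9 trimethylates lysine 4 of histone H3 at the sites of meiotic recombination. At postnatal day 8 the first germ cells are only entering meiosis.

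Expression was measured in total RNA from testes of male mice at postnatal day 8, with 4 biological replicates of wild type and 4 of the VRK1-deficient mutant, 1 Agilent mouse array for each. VRK1-deficient mice were homozygous for a gene trap, a β-geo cassette inserted in intron 3 of Vrk1. The line came from 1 trapped embryonic stem cell clone and was crossed to C57BL/6. The allele is carried by every cell, and some full-length Vrk1 transcript is still made, so it is hypomorphic and not null. Values are log2 processed signals minus the log2 of the 75th percentile of the array, called the log2 signal below. A change is the VRK1-deficient mean minus the wild type mean. A probe was tested with limma if the scanner software marked it as above background on 4 or more arrays, and was called at an adjusted p under 0.05 over all 26948 tested probes. Signals of different probes are not on 1 scale, because probes bind with different strength, so the levels of different genes were not ranked.

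Vrk1, the trapped gene, averaged 0.16 ± 0.38 (SD, n = 4) on the wild type arrays and -3.85 ± 0.27 (n = 4) on the VRK1-deficient ones. Its change of -4.00 (SE 0.21, limma adjusted p = 0.000135) left 6.23% of the wild type signal. Wild type replicate 1 stood apart from the other wild type arrays in germ cell markers. The summed signal of 9 of 9 pan germ cell markers, in units of the 75th percentile, was 28.3 on that array and at most 78.0 on the others of its genotype, against 20.4 to 34.0 in VRK1-deficient testes. That of 13 of 14 markers of differentiating spermatogonia and meiotic prophase was 36.8 on that array and at most 111 on the other wild type arrays, against 22.3 to 42.7. No summed marker level was at 0. Each sum leans on its brightest probe, that of Tex101 among the pan germ cell markers and of Stra8 among the others. All 9 and all 13 of these markers were lower in VRK1-deficient testes, with 1 and 3 called on all 8 arrays (4.09% of all tested genes) and 8 and 13 without wild type replicate 1 (28.9% of all tested genes).

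Markers of undifferentiated spermatogonia did not move together. Of 8 such markers, 3 were lower and 5 higher, with a median change of 0.36. Their summed signal was 10.1 to 14.6 in wild type and 8.31 to 9.81 in VRK1-deficient testes. The brightest probe in that sum, that of Foxo1, changed by -0.56 (limma adjusted p = 0.0588). The sum therefore does not stand for all 8 markers alike. On all 8 arrays Sall4 (-0.99, limma adjusted p = 0.0491) and Lin28a (-1.12, adjusted p = 0.0498) were called lower and Bcl6b (0.61, adjusted p = 0.0497) higher, and 7 of the 8 were called without wild type replicate 1. Sertoli cell markers were mixed as well, with 7 of 10 higher, 3 lower and 0 called by limma. At an unadjusted p under 0.05 there were 6, against 29.6% of all tested genes. Without wild type replicate 1, limma called 7 of the 10, against 28.9% of all tested genes. Among them Amh was higher (1.65) and Rhox5 lower (-1.42). The summed level of the Sertoli markers, in which the Clu probe was the brightest, was 203 to 300.2 in wild type. Its highest wild type value was on replicate 1, and it was 270 to 317 in VRK1-deficient testes. The peritubular gene Cnn1 was called lower (-0.99, limma adjusted p = 0.0445), as 1 of 5 of its list. The rest of that list did not share its change (Acta2 -0.06, Myh11 -0.08, Tagln -0.03 and Des 0.33), and the list median was -0.06. For Leydig and macrophage markers, limma called 0 of 6 and 0 of 5 (2 and 0 unadjusted). Without wild type replicate 1 it called 1 of 5 peritubular, 2 of 6 Leydig and 0 of 5 macrophage markers. Single markers in these lists were named after their values were seen. Results are therefore given with all 8 arrays and without wild type replicate 1. That array was singled out for its low germ cell marker values, and leaving it out raises the wild type mean of such markers. Calls made without it are therefore no independent support for a change in these markers or in genes that follow them. In whole testis RNA, fewer cells of a type and less RNA in each cell cannot be told apart. Replicates 1 and 2 of both genotypes lay on slide 1 and replicates 3 and 4 on slide 2, and array position and genotype cannot be told apart.

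The arrays read each gene through 60-base probes. The first 30 bases of the probes on which the results turn are shown 5′ to 3′ as the array files give them, to tell apart the probes of a gene that behaved differently. All letters are in lower case because no part was singled out, and none of these probes shared its sequence with another probe. Positions are on mouse build mm7, and their place in exons or introns was not determined here.
Ehmt2 probe A_51_P343016 (chr17:33011047-33011105): ttccccactgagcctggcctcagttagctg
Suv39h2 probe A_51_P419169 (chr2:3381885-3381944): gaaccataaggggatgatatttgttgaaaa
Suv39h2 probe A_52_P16931 (chr2:3375594-3375653): tcactgtttgcttacttgagaagtcggaat
Cbx5 probe A_52_P676573 (chr15:103179894-103179953): ggcatccccagattcttcatgataggtttc
Cbx5 probe A_52_P544760 (chr15:103178602-103178608): aggcattacgtcattcacatgctgtgtggt
Cbx5 probe A_52_P547538 (chr15:103187346-103187405): gagctaaaggaggaggcagtctctgtcgtt
Cbx3 probe A_51_P160328 (chr6:51446687-51446746): atgtggaaatagagtcgtggctggagctga
Cbx3 probe A_51_P117162 (chr6:51438597-51441720): gagtatttcctgaagtggaaggggttcaca
Prdm9 probe A_51_P215513 (chr17:13794245-13795841): gatactctacacattaactaaagtcacagg

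No gene of the set passed the test on all 8 arrays. Of the 24 probes, 16 could be tested, for 9 of the 10 genes. Among the 8 untested probes, Ehmt1 A_52_P451570, Setdb1 A_52_P31717 and Cbx3 A_52_P397231 were well above background on 0 of 8 arrays. The other untested probes are described with their genes below. The 16 tested probes were detected on 8 of 8 arrays, and 0 of them were called by limma, where 3.66% of all tested probes were called. The methods' t-test also called 0 of the 16 after adjustment. At an unadjusted p under 0.05, limma found 3 of the 16 probes lower (Ehmt2 and 2 probes of Suv39h2) and 2 higher (1 probe each of Cbx3 and Cbx5), against 14.8% and 14.1% of all tested probes. Of the 16 probes, 12 changed by less than 0.3 on the log2 scale. The median change over the 16 was -0.02, beside 0.04 over all tested probes. For 3 of the 16 (Ehmt2, Cbx3 and Cbx5) the arrays of one genotype lay wholly above those of the other, as they did for 16.7% of all tested probes. Without wild type replicate 1, limma called 4 of the 16 (Ehmt2, both Suv39h2 probes and 1 Cbx5 probe), against 28.4% of all tested probes. Leaving out any other single array gave 3 to 68 calls over all probes, where all 8 arrays gave 986, and 0 among the members. The number of calls therefore depended on single arrays, and rose only when wild type replicate 1 was the one left out.

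**Figure D1:**
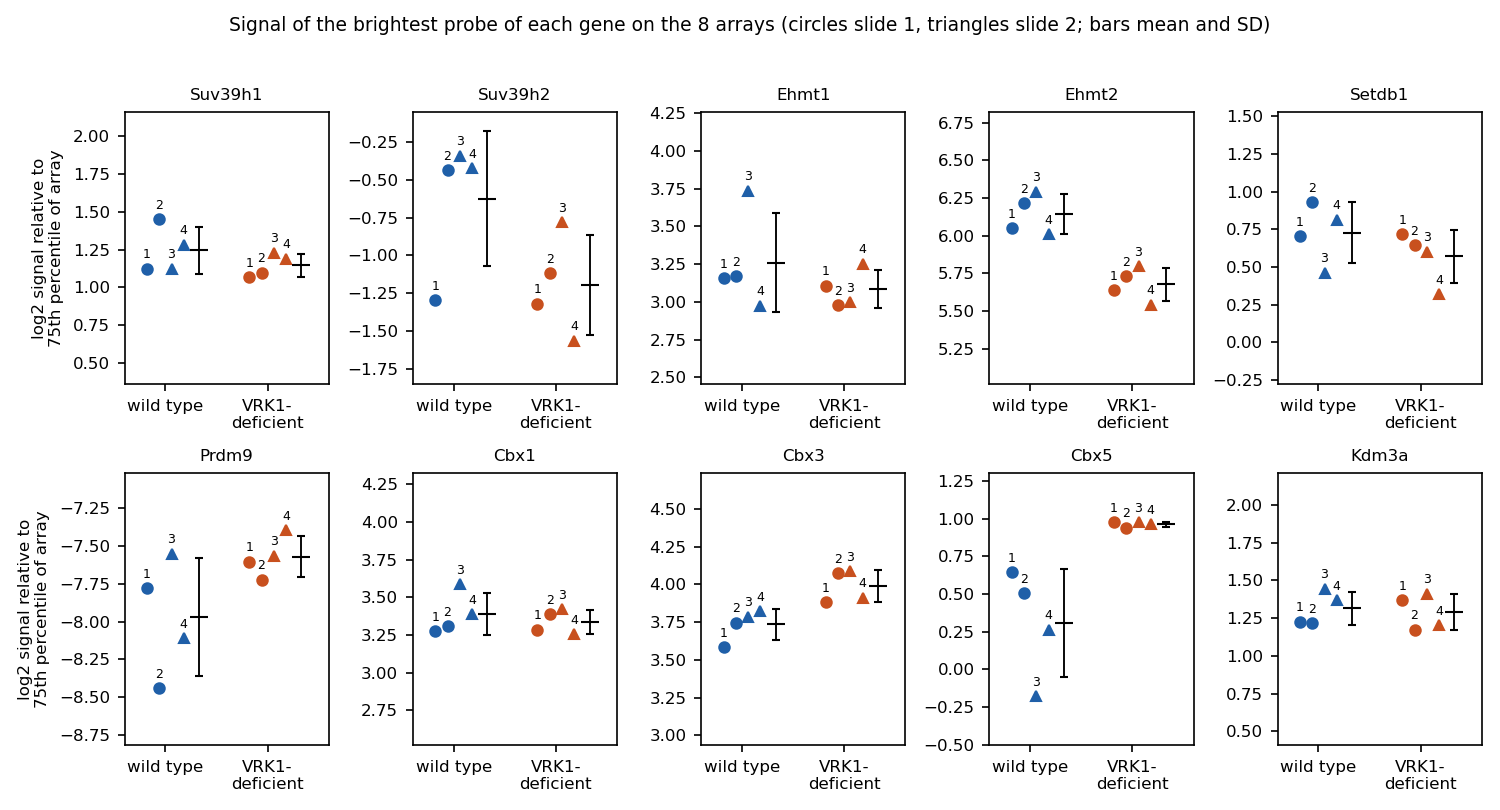
Log2 signal (75th percentile of the array = 0) for the brightest probe of each of the 10 genes, on the 4 wild type and 4 VRK1-deficient arrays. Numbers are replicates, circles slide 1 and triangles slide 2, and the bars give mean and SD. The genotypes separate for Ehmt2, Cbx3 and Cbx5, wild type replicate 1 of Suv39h2 sits among the VRK1-deficient arrays, and Prdm9 is not well above background on any array.

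Ehmt2, which codes for G9a, was the methyltransferase with the smallest p. Its log2 signal (probe A_51_P343016, NM_145830) was 6.05, 6.22, 6.29 and 6.01 on wild type arrays 1 to 4, and 5.64, 5.73, 5.80 and 5.54 on the VRK1-deficient arrays. Every VRK1-deficient array lay below every wild type array, wild type replicate 1 included. Wild type averaged 6.14 ± 0.13 (SD, n = 4) and VRK1-deficient testes 5.68 ± 0.11 (n = 4), which is a change of -0.46 (SE 0.11, 95% interval -0.72 to -0.20) or 72.5% of the wild type signal. This did not pass the threshold, with a limma adjusted p of 0.0562. Slide 1 alone gave a change of -0.45 and slide 2 alone -0.48, nearly the same size. Without wild type replicate 1 it was -0.49 with an adjusted p of 0.0184. Leaving out another single array gave adjusted p-values from 0.0792 to 0.165, and over all alternatives they ran from 0.0184 to 0.500. Ehmt2 was called with quantile normalization (adjusted p = 0.0448), normexp (0.0399), the filter on all 8 arrays (0.0477), and trend with robust variances (0.0310), settings that called 2.78%, 5.24%, 5.71% and 7.11% of all tested probes. It was also called as a mean over probes of a gene (0.0457), where 5.88% of all genes were. Over the 8 arrays, the Ehmt2 signal had a Pearson r of 0.79 with the germ cell marker Ddx4, an RNA helicase of the germ line. It was 0.74 with the germ cell marker Sycp3, 0.82 with Stra8 and -0.38 with the Sertoli marker Sox9. These values describe arrays from both genotypes. On wild type replicate 1, Ddx4 (1.48) lay within its VRK1-deficient range (1.19 to 1.82), whereas Ehmt2 lay above its own. The part of germ cell content in the Ehmt2 difference was not tested.

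Ehmt1, the partner of G9a, gave 3.16, 3.17, 3.74 and 2.98 on the wild type arrays and 3.11, 2.98, 3.00 and 3.25 on the VRK1-deficient arrays (probe A_51_P485768, NM_172545, chr2:24798113-24798172). The genotypes overlapped, and wild type replicate 3 was the highest. The change was -0.18 (SE 0.17, 95% interval -0.56 to 0.21, limma adjusted p = 0.512), and without that array it was -0.018. The change of Ehmt2 differed from that of Ehmt1 by -0.29 (SE 0.16), and an exact two-sided permutation test over 70 arrangements of the arrays gave p = 0.114. This was 1 of 5 comparisons between related genes, and its p adjusted over the 5 was 0.143. A different change in the 2 members of the complex was thus not shown.

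Suv39h2 had the lowest values of the set relative to wild type. It was also among the genes that the study listed from these same arrays, so its direction is not independent evidence. On probe A_51_P419169 (NM_022724) the log2 signal was -1.30, -0.44, -0.34 and -0.42 on wild type arrays 1 to 4, and -1.32, -1.12, -0.78 and -1.57 on the VRK1-deficient arrays. Wild type replicate 1 lay within the VRK1-deficient range, and the other 3 wild type arrays lay above all VRK1-deficient arrays. The mean was -0.62 ± 0.45 (SD, n = 4) in wild type and -1.20 ± 0.33 (n = 4) in VRK1-deficient testes. The change was -0.57 (SE 0.24, 95% interval -1.12 to -0.02, limma adjusted p = 0.160), or 67.2% of the wild type signal.

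The second tested Suv39h2 probe gave the same order of arrays at the top. On probe A_52_P16931 the log2 signal was -3.38, -2.46, -1.77 and -2.09 on the wild type arrays, and -3.61, -3.13, -3.26 and -3.78 on the VRK1-deficient arrays. Again only wild type replicate 1 fell among the VRK1-deficient arrays. The change was -1.02 (SE 0.32, 95% interval -1.74 to -0.30), or 49.4% of the wild type signal, with a limma adjusted p of 0.0854. The size depended on the background correction of this dim probe, and was -0.50 with normexp. Without wild type replicate 1 the changes of the 2 probes were -0.80 (limma adjusted p = 0.0149) and -1.34 (adjusted p = 0.00495), and both probes were then called. That array had the lowest wild type signal on both probes, so leaving it out was bound to enlarge the changes. Over all alternatives the adjusted p ran from 0.0149 to 0.663 and from 0.00495 to 0.637. On slide 1, which holds that array, the changes were -0.35 and -0.45, and on slide 2 they were -0.79 and -1.59. Tested on slide 2 alone, probe A_52_P16931 was the 1 member probe called (adjusted p = 0.0404), against 3.94% of all tested probes.

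The remaining 3 Suv39h2 probes were too dim to test. Probe A_52_P187046 was well above background on 3 wild type arrays and on 0 VRK1-deficient arrays. Its signal on VRK1-deficient array 2 (-5.51) was nevertheless above that on wild type arrays 2 (-5.83) and 4 (-5.67). The detection counts therefore do not measure a difference in signal. The wild type mean of -5.65 lay below the bound set by the dimmest detected probes, so no fold is given. Probe A_52_P227601 was well above background on VRK1-deficient array 4 alone, and probe A_52_P529343 on none.

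**Figure D2:**
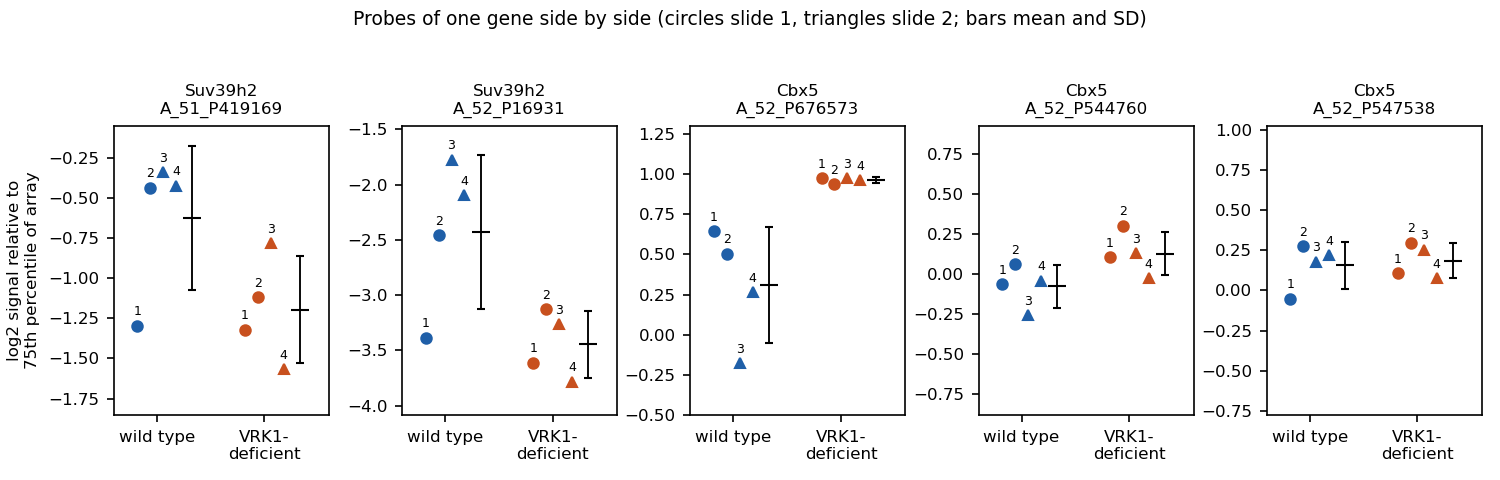
Log2 signal (75th percentile of the array = 0) for 2 probes of Suv39h2 and 3 probes of Cbx5, by genotype and replicate, with circles for slide 1, triangles for slide 2 and bars for mean and SD. Both Suv39h2 probes place wild type replicate 1 beside the VRK1-deficient arrays, and the separation of genotypes in Cbx5 appears on probe A_52_P676573 and not on the other 2.

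Suv39h2 followed germ cell markers closely across the arrays. Over the 8 arrays of both genotypes, the Pearson r of probe A_51_P419169 was 0.92 with Ddx4, 0.90 with Sycp3, a component of the synaptonemal complex, and 0.92 with Stra8, a gene needed for entry into meiosis. It was -0.81 with Sox9, a transcription factor of Sertoli cells. Not every Sertoli marker ran against Suv39h2, since Rhox5, a homeobox gene chosen after its values were seen, also had its lowest wild type signal on replicate 1 and changed by -1.08 (SE 0.38, limma adjusted p = 0.111). These values describe 8 arrays that share the genotype difference, and no p is given. Ddx4 itself changed by -0.83 (SE 0.30, limma adjusted p = 0.117), Sycp3 by -1.40 (SE 0.54, adjusted p = 0.132) and Stra8 by -1.48 (SE 0.44, adjusted p = 0.0760). All 3 were called without wild type replicate 1, at -1.14, -1.94 and -1.88 (limma adjusted p = 0.00555, 0.00743 and 0.00667). That array was singled out by its low germ cell marker values, so these calls are no independent support. As with Suv39h2, wild type replicate 1 had the lowest wild type signal of each of these markers. The part of germ cell content in the Suv39h2 difference was not tested.

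Suv39h1, the X-linked paralog that is expressed in most cell types, changed little between genotypes. Its log2 signal was 1.12, 1.45, 1.12 and 1.28 on the wild type arrays and 1.07, 1.10, 1.23 and 1.19 on the VRK1-deficient arrays (probe A_51_P510441, NM_011514, chrX:6494869-6494928). The genotypes overlapped, as they did on both tested Suv39h2 probes. The change was -0.10 (SE 0.12, 95% interval -0.36 to 0.16, limma adjusted p = 0.589). The change of Suv39h2 differed from that of Suv39h1 by -0.47 (SE 0.26, exact two-sided permutation p = 0.143, 0.143 adjusted over the 5 pairs), so a difference between the paralogs was not shown.

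**Figure D3:**
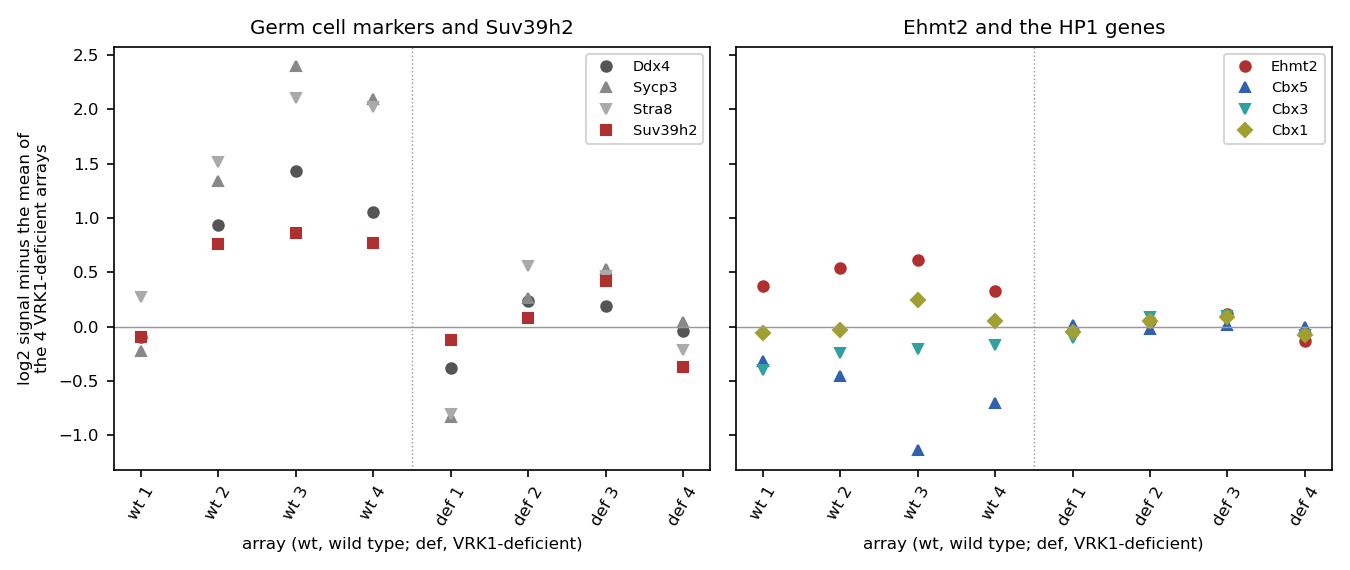
Log2 signal minus the mean of the 4 VRK1-deficient arrays (vertical axis) on each of the 8 arrays (horizontal axis), for 3 germ cell markers with Suv39h2 on the left and for Ehmt2 with the HP1 genes on the right. Suv39h2 lies near the level of the VRK1-deficient arrays on wild type array 1, as Ddx4 and Sycp3 do, whereas Ehmt2 is above 0 and Cbx5 below 0 on all 4 wild type arrays.

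Setdb1 (probe A_52_P609475, NM_018877, chr3:95198697-95198756) gave 0.70, 0.93, 0.46 and 0.81 on the wild type arrays and 0.72, 0.65, 0.60 and 0.32 on the VRK1-deficient arrays. The groups overlapped, with a change of -0.16 (SE 0.14, 95% interval -0.47 to 0.16, limma adjusted p = 0.480).

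Prdm9 was not detected on these arrays. Its 1 probe (BC012016) gave -7.78, -8.44, -7.55 and -8.11 on the wild type arrays and -7.60, -7.72, -7.56 and -7.40 on the VRK1-deficient arrays, and was well above background on 0 of 8. The lowest log2 signal among detected probes lay between -6.35 and -5.50, depending on the array, above every Prdm9 value. The Prdm9 values are therefore no measure of its level, and its genotype difference was not tested. A silent probe does not show that a transcript is absent. Cbx5 probe A_51_P396432 was also well above background on 0 of 8 arrays, while other Cbx5 probes were detected on all 8.

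By the brightest probe of each of the 9 tested genes, 7 had lower and 2 had higher values in VRK1-deficient testes. Of all 17939 tested genes, 8081 were lower and 9858 higher. The 2 higher ones were the HP1 genes Cbx3 and Cbx5, while the HP1 gene Cbx1 was among the lower ones. Kdm3a (-0.03), Cbx1 (-0.05) and Suv39h1 (-0.10) changed little, and each turned sign in some alternative. Ehmt1, Ehmt2, Setdb1 and Suv39h2 stayed lower under every alternative run. Over all 16 tested probes, 9 were lower and 7 higher. Cbx3 codes for HP1γ, which lies mainly in euchromatin. On probe A_51_P160328 (NM_007624) the log2 signal was 3.59, 3.75, 3.79 and 3.82 on the wild type arrays, and 3.88, 4.08, 4.09 and 3.91 on the VRK1-deficient arrays. Every VRK1-deficient array lay above every wild type array, although the nearest values were close. The change was 0.25 (SE 0.11, 95% interval 0.01 to 0.50), or 119% of the wild type signal, with a limma adjusted p of 0.163. The second tested Cbx3 probe, A_51_P117162, changed by 0.09 (SE 0.13, adjusted p = 0.689), with overlapping genotypes.

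Cbx5 codes for HP1α, a protein of pericentric heterochromatin. On probe A_52_P676573 (XM_001000807) the log2 signal was 0.65, 0.50, -0.18 and 0.26 on the wild type arrays, and 0.98, 0.94, 0.98 and 0.96 on the VRK1-deficient arrays. The VRK1-deficient arrays were nearly equal and all above the wild type arrays, which were spread widely. The mean was 0.31 ± 0.36 (SD, n = 4) in wild type and 0.96 ± 0.02 (n = 4) in VRK1-deficient testes. The change was 0.65 (SE 0.17, 95% interval 0.27 to 1.04), or 157% of the wild type signal, and did not pass the threshold (limma adjusted p = 0.0615). Without wild type replicate 1 it was 0.77 and was called (adjusted p = 0.0113, with 0.0113 to 0.500 over all alternatives). Slide 1 alone gave 0.38 and slide 2 alone gave 0.93.

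The other probes of Cbx5 gave smaller values. Probe A_52_P544760 (NM_007626) changed by 0.20 (SE 0.12, 95% interval -0.07 to 0.47, limma adjusted p = 0.285), with 3 of the 4 VRK1-deficient arrays above all wild type arrays, and stayed positive under every alternative run. Probe A_52_P547538, also assigned to NM_007626, changed by 0.03 (SE 0.12, 95% interval -0.23 to 0.29, adjusted p = 0.888), and probe A_51_P396432 was well above background on 0 of 8 arrays. The mean over the 3 tested probes changed by 0.30 (SE 0.11, adjusted p = 0.113). The size of the Cbx5 difference and the separation of the genotypes therefore rest on 1 of 3 probes, and that probe is assigned to another transcript record than the other 2. Across the 8 arrays, probe A_52_P676573 ran against the germ cell markers, with a Pearson r of -0.89 with Ddx4 and -0.86 with Stra8, whereas Cbx3 gave -0.20 and -0.24. The part of germ cell content in the Cbx5 difference was not tested.

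Cbx1, which codes for HP1β, stayed within its replicate spread. On probe A_51_P495012 (NM_007622, chr11:96910548-96910607) the log2 signal was 3.27, 3.31, 3.58 and 3.39 on the wild type arrays and 3.28, 3.39, 3.42 and 3.26 on the VRK1-deficient arrays. The groups overlapped, with a change of -0.05 (SE 0.11, 95% interval -0.30 to 0.20, limma adjusted p = 0.787). A second probe, A_52_P255804, changed by 0.01 (SE 0.17, adjusted p = 0.986). The direction of both probes turned under other settings.

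The 3 HP1 genes were set against each other on the same arrays. The change of Cbx3 was above that of Cbx1 by 0.31 (SE 0.06) and that of Cbx5 was above that of Cbx1 by 0.70 (SE 0.25). For each of these pairs the exact two-sided permutation test gave p = 0.0286, the smallest that 70 arrangements allow, and 0.0714 after adjustment over the 5 pairs. Cbx5 and Cbx3 differed in change by 0.40 (SE 0.23, exact permutation p = 0.143, 0.143 adjusted). With the mean of all tested probes of a gene, the differences from Cbx1 were 0.19 for Cbx3 (exact permutation p = 0.257) and 0.32 for Cbx5 (exact permutation p = 0.0857). No difference among the HP1 genes passed the adjusted threshold.

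Kdm3a, the demethylase needed for chromatin packing in spermatids, had 3 tested probes, and a difference was not shown on any. On probe A_51_P116309 (NM_173001, chr6:71607190-71607249) the log2 signal was 1.23, 1.22, 1.45 and 1.37 on the wild type arrays and 1.37, 1.17, 1.41 and 1.20 on the VRK1-deficient arrays. The change was -0.03 (SE 0.11, 95% interval -0.28 to 0.23, limma adjusted p = 0.897). The other probes changed by 0.07 (A_51_P489406, SE 0.20, 95% interval -0.38 to 0.53) and -0.01 (A_52_P133965, SE 0.13, 95% interval -0.30 to 0.28). The sign of all 3 turned under some settings.

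**Figure D4:**
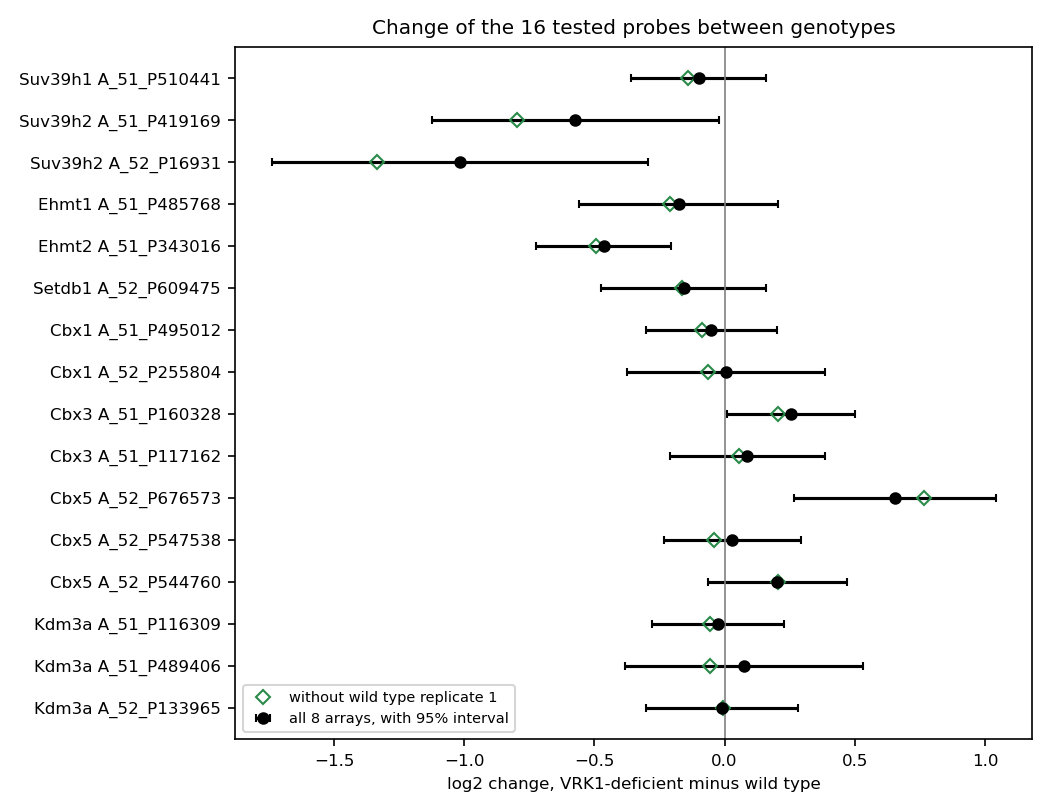
Log2 change, VRK1-deficient minus wild type, of the 16 tested probes of 9 genes. Black points with bars are the change on all 8 arrays and its 95% interval, and green diamonds the change without wild type replicate 1. The intervals exclude 0 for Ehmt2, both Suv39h2 probes, 1 probe of Cbx3 and 1 of Cbx5, and leaving out wild type replicate 1 moves Suv39h2 the most.

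The 7 lists of related genes were read through the brightest probe of each gene. They held 80 genes, of which 79 had a probe and 78 were tested, and 1 of the 78 was called (lower), where 4.09% of all tested genes were called. The list genes numbered 46 lower and 32 higher, with a median change of -0.05 beside 0.04 over all tested genes. At an unadjusted p under 0.05 there were 17 of 78, against 29.6% of all tested genes, and 14 of 78 had genotypes without overlap, against 17.6%. The last count lay close to the share of all genes, and the first 2 were below it. Without wild type replicate 1, 22 of the 78 were called, against 28.9% of all genes. These shares over all tested genes are the background for the counts of every list below.

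The gene called was the demethylase Kdm5a, which removes methyl groups from lysine 4 of histone H3. On probe A_51_P258381 (named Jarid1a on the array, chr6:120437610-120437669) its log2 signal was 0.38, 0.69, 0.83 and 0.81 on the wild type arrays and 0.04, 0.13, 0.06 and -0.14 on the VRK1-deficient arrays. All VRK1-deficient arrays were below all wild type arrays. The change was -0.66 (SE 0.13, limma adjusted p = 0.0459), with -0.45 on slide 1 and -0.86 on slide 2. Leaving out wild type replicate 1 lowered the adjusted p to 0.00406, and leaving out another single array raised it to between 0.0687 and 0.147, which ended the call. The highest adjusted p of any alternative was 0.500. The second tested Kdm5a probe, A_52_P374669, changed by -0.47 (SE 0.25, adjusted p = 0.244). Of the other 18 demethylases, 7 had lower and 11 higher values, and limma called 0 (4 at an unadjusted p under 0.05). In all, 7 of the 19 demethylases were called without wild type replicate 1, against 28.9% of all tested genes.

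Partners of lysine 9 methylation had lower values in 8 of 10 genes, with a median change of -0.13, and limma called 0 of 10 (3 at an unadjusted p under 0.05). The smallest p were those of Prdm16 (-0.90, SE 0.21, adjusted p = 0.0529) and Prdm2 (-0.45, SE 0.14, adjusted p = 0.0848), both PR-domain methyltransferase relatives. Both were called without wild type replicate 1 (-1.10 and -0.53), as were 28.9% of all tested genes. HP1-binding proteins and other chromobox genes were lower in 8 of 13, with a median of -0.11 and 0 called (4 unadjusted). The Polycomb chromobox genes Cbx7 (-0.68, SE 0.18, adjusted p = 0.0598) and Cbx2 (-0.55, SE 0.15, adjusted p = 0.0635), which read the H3K27 mark of the Polycomb system, came nearest to the threshold. Leaving out wild type replicate 1, 6 of the 13 were called, Cbx7 and Cbx2 among them, against 28.9% of all tested genes.

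Methyltransferases of other lysines had small median changes. For lysine 4, 11 of 15 genes were lower with a median of -0.10, and limma called 0 (0 unadjusted). The nearest to the threshold were Kmt2b (-0.27, SE 0.12, adjusted p = 0.187) and the CpG-binding subunit gene Cxxc1 (-0.22, SE 0.10, adjusted p = 0.191). For H3K27, 4 of 11 genes of Polycomb repressive complex 2 were lower with a median of 0.06 and 0 called (2 unadjusted). Its catalytic gene Ezh2 changed by 0.28 (SE 0.11, adjusted p = 0.127) and its methyl-reading subunit gene Eed by -0.54 (SE 0.24, adjusted p = 0.172). For lysines 36 and 79, 4 of 7 were lower with a median of -0.02 and 0 called (1 unadjusted). The lysine 36 enzyme gene Nsd2 changed by -0.71 (SE 0.19, adjusted p = 0.0615) and the lysine 79 enzyme gene Dot1l by -0.40 (SE 0.27, adjusted p = 0.355). On the 7 arrays other than wild type replicate 1, limma called 1 of the 15 genes of lysine 4 (Kmt2d, 0.65). It also called 3 of the 11 of H3K27 (Ezh2 0.32, Eed -0.79 and Phf19 0.44) and 1 of the 7 of lysines 36 and 79 (Nsd2, -0.84). The share over all tested genes was 28.9%.

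The partners of PRDM9 and readers of meiotic chromatin had the lowest median of the 7 lists, -0.49 over 4 tested genes of 6, of which 3 were lower. Limma called 0 of the 4 (2 unadjusted). Zcwpw1, a reader of the marks that PRDM9 writes, changed by -1.03 (SE 0.28, adjusted p = 0.0657), and Hells, a chromatin remodeller that works with PRDM9, by -0.82 (SE 0.32, adjusted p = 0.133). Both were called without wild type replicate 1, at -1.25 (adjusted p = 0.00902) and -1.12 (adjusted p = 0.00928). The other 2 tested genes, Ewsr1 (-0.16, adjusted p = 0.425) and Cdyl (0.02, adjusted p = 0.939), changed little. The summed signal of the 4 genes was 12.9 on wild type replicate 1, the lowest of the wild type arrays. It was at most 20.4 on the others, against at most 13.9 in VRK1-deficient testes. Ewsr1 had the brightest probe, so this sum leans on Ewsr1 more than on Zcwpw1 or Hells. Zcwpw1, Hells and Ewsr1 had their lowest wild type signal on replicate 1, as Ddx4, Sycp3 and Stra8 did, and Cdyl did not. The part of germ cell content in these changes was not tested.

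**Figure D5:**
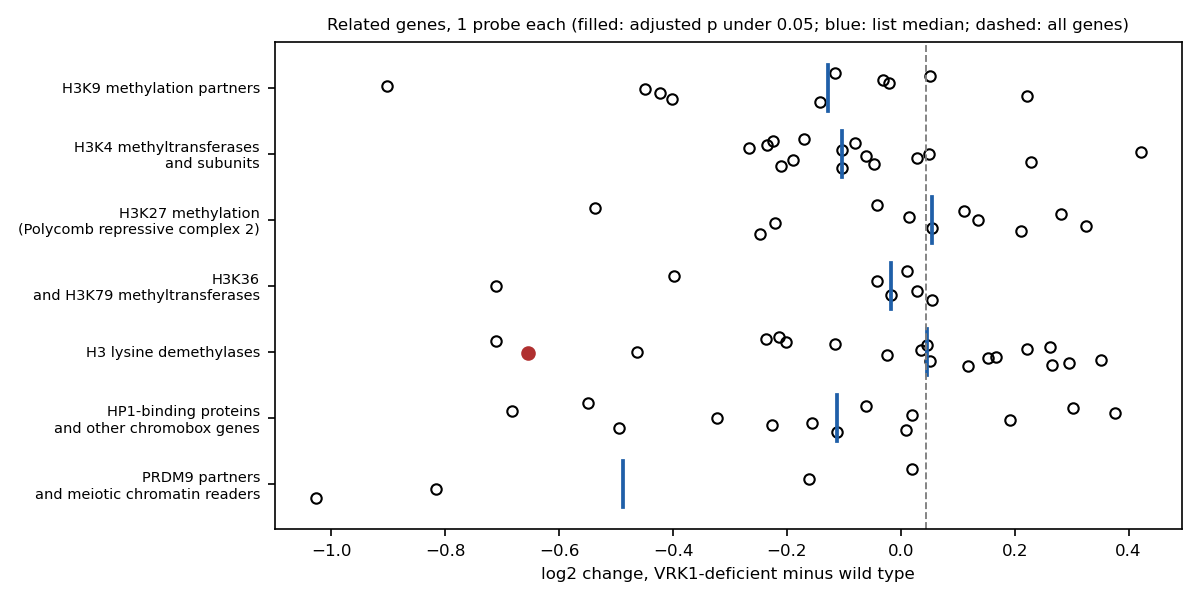
Log2 change, VRK1-deficient minus wild type, of each tested gene of 7 related lists (1 point per gene, brightest probe), with the list median as a blue bar and the median of all tested genes, 0.04, as a dashed line. The 1 filled point is Kdm5a, the gene called, and the list of PRDM9 partners has the lowest median, -0.49.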

How the data were processed

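Total RNA from testes was labeled with Cy3 by the authors and hybridized to 1-color Agilent mouse arrays, 1 sample per array. Per the file headers, Agilent Feature Extraction 9.5.3.1 made the deposited intensity values, which are linear, background-subtracted processed signals without scaling across arrays. The value table the authors deposited beside them holds the same intensities. Spots flagged as outliers (58 to 134 per array) and control spots were left out, and spots of a probe were averaged. The 75th percentile lay between 548 and 851, and 63.6% to 69.5% of spots were well above background. Precision is limited by how many arrays there are.

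The test of genotype used lmFit and eBayes of limma 3.58.1 without covariates in R 4.3.3, with Benjamini-Hochberg adjustment over all 26948 tested probes. Of these, 24364 were detected on 8 of 8 arrays. The script was tested on simulated data. Related genes were compared by exact two-sided permutation tests of the per-array difference of log2 signals, brightest probe each, in Python 3.11.15 with scipy 1.17.1. Gene symbols were updated by accession (23082 probes), symbol (6582) or synonym (3073) in a RefSeq gene table, and the array's name was kept for 8437. Lists were described by counts and medians, with no set test.

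The members and lists were chosen with earlier results of these data known. Named genes were every member with every probe, called genes of each related list or otherwise the 2 with the smallest p, and 7 markers. The study calls the samples biological replicates, and p-values measure the spread between these samples. Samples sharing a replicate number were not treated as pairs, because the correlation of their deviations from the group means was 0.47, 0.07, 0.19 and -0.14. Alternatives changed the scaling (quantile, unscaled deposited table), the background correction (normexp, offset 50), the filter (none, or detection on all 8 arrays), the probes of a gene (their mean), the arrays (each slide alone, each array omitted), the blocking (by slide, by replicate number) and the test (the methods' t-test, trend with robust variances).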

Additional observations from a re-analysis of the deposited data

Results flagged for a closer look

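In groups of 4 arrays, 3 of 32 had 1 array far from the other 3 in Dixon's test at the 95% level, and chance gives about 1 in 20. Wild type replicate 1 was the lowest for Suv39h2 probe A_51_P419169 (-1.30, others -0.44 to -0.34, gap 0.899 of the range) and for Kdm3a probe A_51_P489406 (-2.99, others -2.50 to -2.44, gap 0.887). VRK1-deficient replicate 2 was the lowest for Kdm3a probe A_52_P133965 (-3.23, others -2.87 to -2.82, gap 0.878). Suv39h2 probe A_52_P227601, which was too dim to test, was well above background on VRK1-deficient replicate 4 alone, with a log2 signal of -5.20 against -7.96 to -6.94 on the other 7 arrays.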

How the results depend on the processing

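Over all probes, 986 were called, with 17 without a filter on dim probes, 641 with slide as a block, 3 on slide 1 alone, 2275 with replicate number as a block, 162 by the methods' t-test, 1915 with trend and robust variances, and 3 to 7655 with 1 array left out (7655 without wild type replicate 1, 3 to 68 without any other). Of the 16 member probes, 0 were called in the main test. Ehmt2 alone was called by quantile normalization (background 2.78%), by normexp (5.24%) and with the filter on all 8 arrays (5.71%). Slide 2 alone called 1 (Suv39h2 probe A_52_P16931, background 3.94%), and trend and robust variances 2 (Ehmt2 and Cbx5, background 7.11%). With 1 array left out, 0 to 4 were called (4 without wild type replicate 1, background 28.4%). By genes of the brightest probe the counts were, in the same order, 1, 1, 1, 0, 2 and 0 to 3. The mean of all probes called 1 (Ehmt2, limma adjusted p = 0.0457, background 5.88%). Of the related genes, 1 was called, with 5 by normexp, 2 on the deposited table, 0 without a filter, 2 with the filter on all 8 arrays, 0 on slide 1 alone, 6 with the replicate block, 0 by the methods' t-test, 5 with trend and robust variances, and 0 to 22 with 1 array left out. The replicate block called 0 member probes.

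Signs of small changes turned. Kdm3a probe A_51_P116309 was 0.049 on slide 1 and -0.067 to 0.018 with 1 array left out. Kdm3a probe A_51_P489406 was -0.10 on the deposited table, -0.0092 on slide 2 and -0.082 to 0.21 with 1 array left out, and probe A_52_P133965 was 0.026 by quantile normalization, 0.15 by normexp, 0.085 on slide 2 and -0.059 to 0.085. Cbx1 probe A_51_P495012 was 0.044 on slide 1 and -0.089 to 0.015 with 1 array left out, and probe A_52_P255804 was -0.016 by quantile normalization, -0.038 by normexp, -0.17 on the deposited table, -0.17 on slide 2 and -0.071 to 0.17. Cbx5 probe A_52_P547538 was -0.0023 by normexp, -0.15 on the deposited table, -0.034 on slide 2 and -0.040 to 0.069 with 1 array left out. Suv39h1 was 0.0058 on slide 2. The unscaled table moved the tested probes alike, by -0.18 in the median (-0.24 to -0.10), and this shift turned Cbx3 probe A_51_P117162 (-0.093), which was positive under every other alternative run. Suv39h2 probe A_52_P16931 was -0.50 by normexp.

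The difference between Cbx3 and Cbx1 was 0.27 on slide 1, 0.34 on slide 2, 0.31 with the replicate block and 0.19 with the mean of all probes, and that between Cbx5 and Cbx1 was 0.34, 1.07, 0.70 and 0.32, with 0.48 to 0.85 when 1 array was left out. These had p above 0.05, except for Cbx5 and Cbx1 without 1 wild type array, and slides (smallest p 0.333) and the replicate block (0.125) cannot go below it. Between Cbx5 and Cbx3 it was 0.22 to 0.56 with 1 array left out, and the 0.56 without wild type replicate 1 had an exact permutation p of 0.0286. The median change of all tested probes was 0.04, with -0.14 on the unscaled table and 0.12 by normexp, and the share of called probes that were lower was 54.3%, with 93.0% on the unscaled table, 45.4% by quantile normalization and 45.6% by normexp. The direction of Ehmt2, both Suv39h2 probes and Cbx5 probe A_52_P676573 held under every alternative run. It also held for Ehmt1, Setdb1, Cbx3 probe A_51_P160328 and Cbx5 probe A_52_P544760, which limma called under no alternative. The causes were not tested.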

Other observations

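The genes whose brightest probe ran most like Ehmt2 over the 8 arrays, among 17935 compared, were Kctd15 (Pearson r = 0.98, change -0.53), Slc66a1 (r = 0.98, change -0.30) and Srcin1 (r = 0.98, change -0.44). For Suv39h2 they were Tent2 (r = 0.99, change -0.23) and Zbed5 (r = 0.99, change -0.49), followed by a probe with no gene symbol, TC1519762 (r = 0.98, change -0.49). Ehmt2 and Suv39h2 were chosen for this after their values were seen, the arrays share the genotype difference, and no p is given.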
